A study of Mus musculus with 12 samples.

Results

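The epidermal differentiation complex is a gene cluster of mouse chromosome 3 that holds the S100 genes, the small proline-rich genes (Sprr), the late cornified envelope genes (Lce), the fused type genes and a few single genes such as Lor (loricrin) and Ivl (involucrin). Its rows were chosen by name: every row on chromosome 3 whose symbol starts with Sprr, Lce or S100a, plus 10 single symbols. The rule found 61 of the 24537 rows, between the start of S100a1 and the end of S100a10 (chr3:90511034-93564645, mm10). They comprised 14 S100 rows, 16 small proline-rich rows, 21 late envelope rows, 6 fused type rows (Flg2, Rptn, Hrnr, Crnn, Tchh and Tchhl1) and 4 other single genes (Lor, Ivl, Kprp and Smcp). On the plus strand lay 36 rows and on the minus strand 25. Sprr2a1 and Sprr2a2 carried the same coordinates and identical values in all 12 libraries, so the 61 rows held 60 distinct measurements.

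The RNA came from 12 mouse cell cultures in 4 groups of 3, and the titles number the mice of every group alike. Cultures of the same number were taken to come from the same animal, which the titles do not spell out. All animals were of the strain Pdgfra-creERxLSL-tdTomato, a cross in which a Cre recombinase driven by Pdgfra, a gene of mesenchymal cells, can switch on a red fluorescent reporter. ADSCs were Pdgfra (+) stromal cells grown from subcutaneous fat in DMEM with serum. In vitro iSEPs (induced stratified epithelial progenitors) were epithelial cells made from Pdgfra (+) ADSCs in culture. In vivo iSEPs were epithelial cells converted from such ADSCs in the animal and then cultured, and keratinocytes were cultured from back skin. The 3 epithelial groups shared a keratinocyte medium free of serum, so that in each comparison with ADSCs the culture medium and the cell type cannot be told apart. The sources used here do not give the animals' age or how conversion was brought about.

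The cluster encodes most of the proteins that keratinocytes lay down under the plasma membrane as they leave the basal layer. Loricrin, involucrin, the small proline-rich proteins and the late envelope proteins are cross-linked by transglutaminases into the cornified envelope, the insoluble shell of the dead outer cells. The fused type proteins join an S100-like calcium-binding part to long repeats, and the S100 proteins themselves are small calcium-binding proteins, several of which are also made outside the epidermis.

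Upstream sequence could be read for 54 of the 61 rows, from RefSeq promoter windows of GRCm38.p6, the same assembly as mm10, that run from 250 bases before the annotated start to 50 after it. The stretch before the start is printed for 7 genes that carried both motifs named below. They were low in ADSCs and called higher in at least 1 epithelial group. Sprr2k, Sprr2i and Crnn met these conditions too and are not printed. Lce3c, the late envelope gene with the highest mean, is printed as well and carried neither motif. Capitals mark the letters TGANTCA on either strand, a form of the AP-1 site, and TATAAA on the gene's strand, the TATA box; the letters of these motifs cannot overlap. Each line runs 5′ to 3′ on the gene's strand.
Sprr1a (strand minus, chr3:92485882-92486131): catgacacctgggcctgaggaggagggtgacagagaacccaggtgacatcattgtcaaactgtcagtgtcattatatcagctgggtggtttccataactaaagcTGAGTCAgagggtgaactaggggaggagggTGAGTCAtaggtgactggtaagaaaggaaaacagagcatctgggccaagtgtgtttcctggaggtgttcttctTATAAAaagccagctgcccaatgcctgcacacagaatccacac
Sprr1b (strand minus, chr3:92438780-92439029): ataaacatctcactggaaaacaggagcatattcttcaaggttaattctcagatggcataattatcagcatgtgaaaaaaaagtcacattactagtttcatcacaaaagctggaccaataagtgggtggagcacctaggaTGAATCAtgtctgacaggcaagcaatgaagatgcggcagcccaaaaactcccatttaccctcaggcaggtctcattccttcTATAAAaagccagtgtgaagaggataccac
Sprr2d (strand plus, chr3:92338890-92339139): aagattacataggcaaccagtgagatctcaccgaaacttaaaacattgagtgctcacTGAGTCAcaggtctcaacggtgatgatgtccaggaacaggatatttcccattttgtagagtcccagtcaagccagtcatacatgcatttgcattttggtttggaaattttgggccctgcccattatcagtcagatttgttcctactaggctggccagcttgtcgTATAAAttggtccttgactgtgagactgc
Sprr2h (strand plus, chr3:92385435-92385684): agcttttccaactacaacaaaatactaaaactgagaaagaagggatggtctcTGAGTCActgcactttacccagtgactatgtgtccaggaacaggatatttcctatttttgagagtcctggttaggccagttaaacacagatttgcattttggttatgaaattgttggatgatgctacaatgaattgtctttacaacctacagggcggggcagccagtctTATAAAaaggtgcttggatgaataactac
Ivl (strand minus, chr3:92573736-92573985): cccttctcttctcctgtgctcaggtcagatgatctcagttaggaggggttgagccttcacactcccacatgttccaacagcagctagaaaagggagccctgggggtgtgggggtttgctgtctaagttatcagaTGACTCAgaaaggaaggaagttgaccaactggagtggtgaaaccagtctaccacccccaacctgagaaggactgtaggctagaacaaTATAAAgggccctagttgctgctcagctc
Lor (strand minus, chr3:92083143-92083392): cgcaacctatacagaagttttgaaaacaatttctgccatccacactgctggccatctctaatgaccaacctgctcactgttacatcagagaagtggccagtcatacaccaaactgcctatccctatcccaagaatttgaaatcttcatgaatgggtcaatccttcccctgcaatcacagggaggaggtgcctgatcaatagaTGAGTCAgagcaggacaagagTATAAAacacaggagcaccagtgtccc
Rptn (strand plus, chr3:93393449-93393698): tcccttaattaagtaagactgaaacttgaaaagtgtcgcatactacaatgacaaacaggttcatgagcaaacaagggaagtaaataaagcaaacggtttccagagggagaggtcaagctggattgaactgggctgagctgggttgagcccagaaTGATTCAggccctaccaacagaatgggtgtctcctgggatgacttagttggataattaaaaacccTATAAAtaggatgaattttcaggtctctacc
Lce3c (strand plus, chr3:92944236-92944485): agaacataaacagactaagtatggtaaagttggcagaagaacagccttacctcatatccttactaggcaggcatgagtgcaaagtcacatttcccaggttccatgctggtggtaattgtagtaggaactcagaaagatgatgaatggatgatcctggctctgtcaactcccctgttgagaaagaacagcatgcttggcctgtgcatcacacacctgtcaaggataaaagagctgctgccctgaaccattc

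The 2 motifs were unevenly spread over the subfamilies. TGANTCA lay in 64.3% of the 14 small proline-rich windows and in 66.7% of the 6 fused type windows, against 7.91% of the 27025 windows of all genes and 0 of 20 late envelope windows. TATAAA lay in 71.4% of the small proline-rich windows, 10% of the late envelope windows and 8.89% of all windows. Positions were similar among the Sprr2 genes: TATAAA began at position -29 from the start in Sprr2b, Sprr2d, Sprr2e, Sprr2f, Sprr2h, Sprr2i and Sprr2k, and their first TGANTCA began between -198 and -193. In Sprr1a the TGANTCA matches began at -146 and -116, in Sprr1b at -111, in Ivl at -116, in Rptn at -96 and in Lor at -48. Of 3 further motifs, CACCC (a KLF site) was in 53.7% of the members' windows and 56.8% of all windows, TTGCNNAA (C/EBP) in 9.26% and 10.7%, and AACNGGTT (GRHL) in 3.7% and 1.96%, each on both strands. A match is a match of letters only, and some windows are near copies of each other and so not independent. Global alignment gave 89.1% identity for the windows of Sprr2d and Sprr2e and 86% for those of Lce1g and Lce1i, pairs among the most alike. These pairs are not typical, as the median identity was 48.3% within the small proline-rich genes, 50.8% within the late envelope genes and 46.4% within the S100 genes, against 47.5% between subfamilies.

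The libraries held between 21010000 and 27760000 reads in listed genes, as read back from the lowest values, and 10845 to 11349 genes reached 1 FPKM (fragments per kilobase of transcript, scaled to library depth). Defining markers of the labelled cell types were present. The summed level of 10 stromal genes was 8873 to 11290 FPKM in ADSCs and 30.2 to 335 FPKM in the other libraries, and that of 8 basal keratinocyte genes was 12.5 to 13.9 FPKM and 10377 to 23329 FPKM. The lowest basal sum among epithelial libraries was that of in vivo iSEP mouse 3, whose 4 simple epithelium keratins summed to 249 FPKM against 9.17 and 14.7 FPKM in the other 2 in vivo iSEP libraries. Melanocyte genes summed to 1.63 to 4.75 FPKM and endothelial genes to 0.571 to 9.62 FPKM over all libraries, the last highest in in vivo iSEP mouse 1. Of 5 Langerhans cell genes, Cd207 and H2-Aa were at 0 in every library. The sum was 8.93 to 162 FPKM in the epithelial libraries, mostly Epcam, which epithelial cells also make. In ADSCs it was 1.6 to 2.39 FPKM, with Epcam at most 0.122 FPKM.

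Across the cluster, ADSCs showed almost only S100 RNA, and the 3 epithelial groups showed S100 and small proline-rich RNA with smaller amounts from the other subfamilies. The number of members at 1 FPKM or more was 8, 7 and 10 in ADSCs of mouse 1, 2 and 3. Keratinocytes had 35, 25 and 25, in vitro iSEPs had 50, 28 and 41, and in vivo iSEPs had 39, 30 and 32. The ADSC counts did not overlap with those of any other group, while the 3 epithelial groups overlapped. The library of in vitro iSEP mouse 1 was the highest of its group for 51 of the 61 members and the highest of all 12 libraries for 34, so counts for in vitro iSEPs are also given without it.

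**Figure D1:**
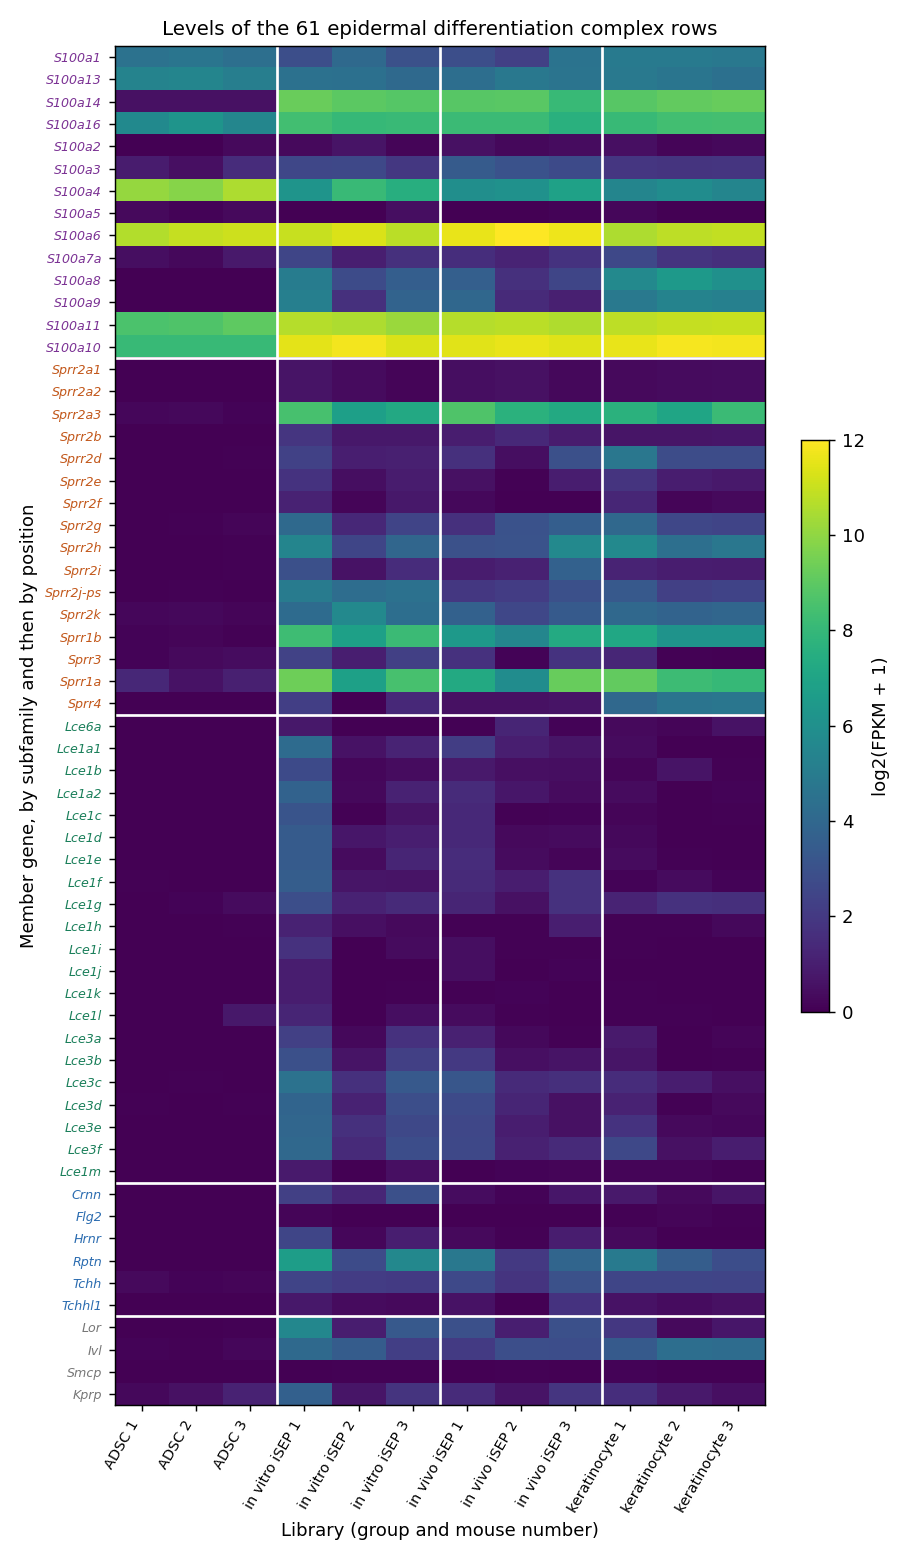
Level of each of the 61 rows (rows, by subfamily and then by position) in each of the 12 libraries (columns, by group and mouse number), as log2(FPKM + 1) on the color scale. Below the S100 block the ADSC columns are dark, with no value above 1.52 FPKM, and the column of in vitro iSEP mouse 1 is the brightest in the late envelope block, where it held the highest value for 20 of 21 rows.

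Of the 61 rows, 41 reached 1 FPKM in at least 3 libraries and were tested (12 S100, 11 small proline-rich, 12 late envelope, 3 fused type and 3 single genes). The other 20 were below that level, 9 of them below 1 FPKM in every library, and no row was at 0 in every library. In keratinocytes against ADSCs, 21 of the 41 tested members were higher and 2 lower (adjusted p below 0.05, limma), where 32.8% of all 12364 genes tested were higher and 20.7% lower. In in vitro iSEPs against ADSCs, 33 of the 41 were higher and 2 lower, beside 32.1% and 21.7% of all genes tested. In in vivo iSEPs against ADSCs, 20 of the 41 were higher and 3 lower, beside 27.6% and 20%. These percentages, like the 41, cover only rows that passed the filter, which a member could pass through the groups where it is high. Over all 61 rows the median difference from ADSCs on the log2(FPKM + 1) scale was 0.50 in keratinocytes, 1.60 in in vitro iSEPs and 0.92 in in vivo iSEPs, while the medians over all genes tested were 0.18, 0.15 and 0.14. With each library scaled to the same median, 22, 32 and 21 members were called in either direction, against 23, 35 and 23. In bulk RNA, fewer cells of a type and less RNA per cell cannot be told apart. The 3 comparisons share the ADSC libraries. The in vitro count of 35 was 29 without in vitro iSEP mouse 1 and 21 without all 4 libraries of mouse 3.

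**Figure D2:**
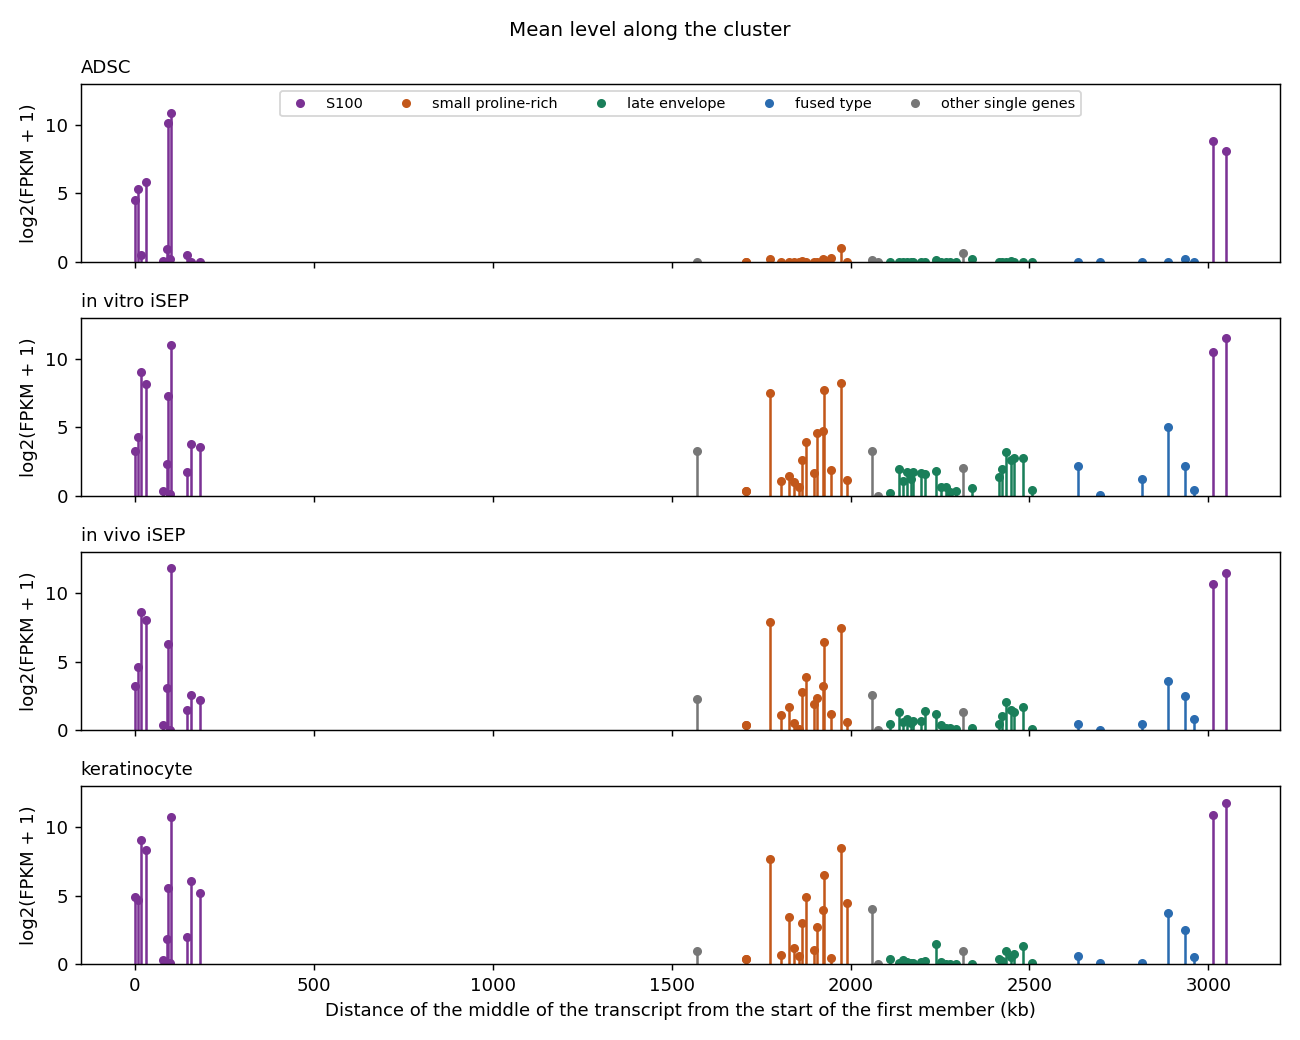
Mean log2(FPKM + 1) of each member (vertical axis, 3 libraries per group) against the distance in kb from the start of the first member (horizontal axis), 1 panel per group, colored by subfamily. High S100 levels stand at both ends of the cluster in all 4 panels, and the small proline-rich genes in between are near 0 in ADSCs and high in the other 3 groups.

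The S100 genes were the only subfamily with abundant RNA in every group. S100a6, S100a10 and S100a11 together made up 64.9% to 71.6% of the summed S100 level in ADSCs and 84.9% to 92.2% in the epithelial libraries. Against ADSCs, 8 of the 14 S100 rows were higher and 2 lower in keratinocytes, 8 higher and 2 lower in in vitro iSEPs, and 8 higher and 3 lower in in vivo iSEPs. Of the 14 rows, 12 were tested. Of all genes tested, 32.8%, 32.1% and 27.6% were higher and 20.7%, 21.7% and 20% lower in these groups. S100a3, S100a7a, S100a8, S100a10, S100a11, S100a14 and S100a16 were higher in all 3, and S100a4 and S100a13 were lower in all 3. S100a2 and S100a5 stayed below 1 FPKM in all libraries and were not tested.

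S100a10 (chr3:93555117-93564645), the partner of annexin A2 at the plasma membrane, stood at 275, 270 and 269 FPKM in ADSCs. It reached 2865, 3519 and 2544 FPKM in in vitro iSEPs, 2792, 3114 and 2697 FPKM in in vivo iSEPs and 3062, 3645 and 3551 FPKM in keratinocytes. No epithelial library overlapped with an ADSC library, and the epithelial groups overlapped with each other. The log2 difference from ADSCs was 3.65 (SE 0.19, adjusted p = 3.938e-08) in keratinocytes, 3.44 (adjusted p = 6.82e-08) in in vitro iSEPs and 3.39 (adjusted p = 7.356e-08) in in vivo iSEPs. S100a11, which binds annexin A1 and takes part in the keratinocyte growth response to calcium, rose 4.31-fold in keratinocytes, 3.22-fold in in vitro iSEPs and 3.67-fold in in vivo iSEPs, with adjusted p = 3.287e-06, 2.061e-05 and 9.529e-06. Among 8 binding partners and receptors of S100 proteins, Anxa2 and Anxa1 were also higher in all 3 groups and Anxa6 lower in all 3. The counts for that list were 3 higher and 2 lower in keratinocytes, 2 and 3 in in vitro iSEPs, and 2 and 2 in in vivo iSEPs. Of all genes tested, 32.8%, 32.1% and 27.6% were higher and 20.7%, 21.7% and 20% lower in the same comparisons, so the list as a whole did not stand out.

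S100a14 (chr3:90526849-90528835), an epithelial S100 gene without a known role in the envelope, showed the largest difference from ADSCs of the tested S100 rows on the log2(FPKM + 1) scale. Its level was 0.468, 0.476 and 0.434 FPKM in ADSCs, against 618, 505 and 458 FPKM in in vitro iSEPs, 466, 489 and 271 FPKM in in vivo iSEPs and 474, 552 and 584 FPKM in keratinocytes. The 9 epithelial libraries all lay far above the 3 ADSC libraries. The ratio of means to ADSCs was 1168 in keratinocytes, 1148 in in vitro iSEPs and 890 in in vivo iSEPs, with adjusted p = 1.647e-10, 1.879e-10 and 2.762e-10. The epithelial groups did not separate: the log2 difference was -0.03 (SE 0.21) for in vitro iSEPs and -0.43 (SE 0.21, adjusted p = 0.2443) for in vivo iSEPs against keratinocytes.

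S100a4 (chr3:90603770-90606045), known as fibroblast-specific protein, went the other way. ADSCs held 1098, 917 and 1459 FPKM. In vitro iSEPs held 72.6, 279 and 186 FPKM, in vivo iSEPs 59.2, 66.1 and 116 FPKM, and keratinocytes 42.9, 56.4 and 43.4 FPKM. All ADSC values lay above all others, and all in vitro iSEP values lay above all keratinocyte values. The log2 difference from ADSCs was -4.56 in keratinocytes, -2.86 in in vitro iSEPs and -3.87 in in vivo iSEPs (SE 0.42 each), with adjusted p = 4.642e-06, 0.0001746 and 1.963e-05. Beside S100a4, the summed level of the 10 stromal genes was 109, 335 and 250 FPKM in in vitro iSEPs, 30.2, 53.4 and 189 FPKM in in vivo iSEPs and 52.6, 53.1 and 43.2 FPKM in keratinocytes. Within each iSEP group the libraries with a higher stromal sum were also those with more S100a4, while in keratinocytes the orders differed. Most of the in vivo iSEP sums was Vim, at 26.5, 47 and 148 FPKM. S100a4 was 3.76-fold higher in in vitro iSEPs than in keratinocytes (adjusted p = 0.02681), and 6 of the 10 stromal genes were higher there too. The part of stromal RNA in the S100a4 level was not tested. That S100a4 call was lost without any 1 keratinocyte library, without in vitro iSEP mouse 2 or 3, without all libraries of mouse 2 or of mouse 3, with no filter and with the compared groups alone. Its adjusted p was highest, 0.2217, without all libraries of mouse 2. Of the 50-base stretches in S100a4 transcripts, 47.4% recur in transcripts of other genes, with Gm42674 sharing the most. For S100a11 the share was 41.1%, with Gm12854 sharing the most, so that reads could be shared between genes. S100a1 was lower than in ADSCs in in vivo iSEPs (adjusted p = 0.04888), but not with the mouse as a replicate block (adjusted p = 0.06934).

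S100a6 (calcyclin), abundant in growing cells of many kinds, was high everywhere. It stood at 1583, 1975 and 2163 FPKM in ADSCs, 2012, 2577 and 1756 FPKM in in vitro iSEPs, 3150, 4248 and 3347 FPKM in in vivo iSEPs and 1491, 1804 and 1886 FPKM in keratinocytes. The in vivo iSEP libraries lay above all 9 others. The in vivo level was 1.88-fold that of ADSCs (adjusted p = 0.008091) and 2.07-fold that of keratinocytes (adjusted p = 0.02203). The first call was lost without a filter on low values (adjusted p = 0.201), under quantile normalization and without mouse 2. The second was lost when any keratinocyte library, in vivo iSEP mouse 2 or all libraries of any 1 mouse were left out, with no filter and with the compared groups alone, up to an adjusted p of 0.5138 without all libraries of mouse 2. Against in vitro iSEPs, S100a6 was 1.69-fold higher in in vivo iSEPs without passing the test (adjusted p = 0.1444).

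**Figure D3:**
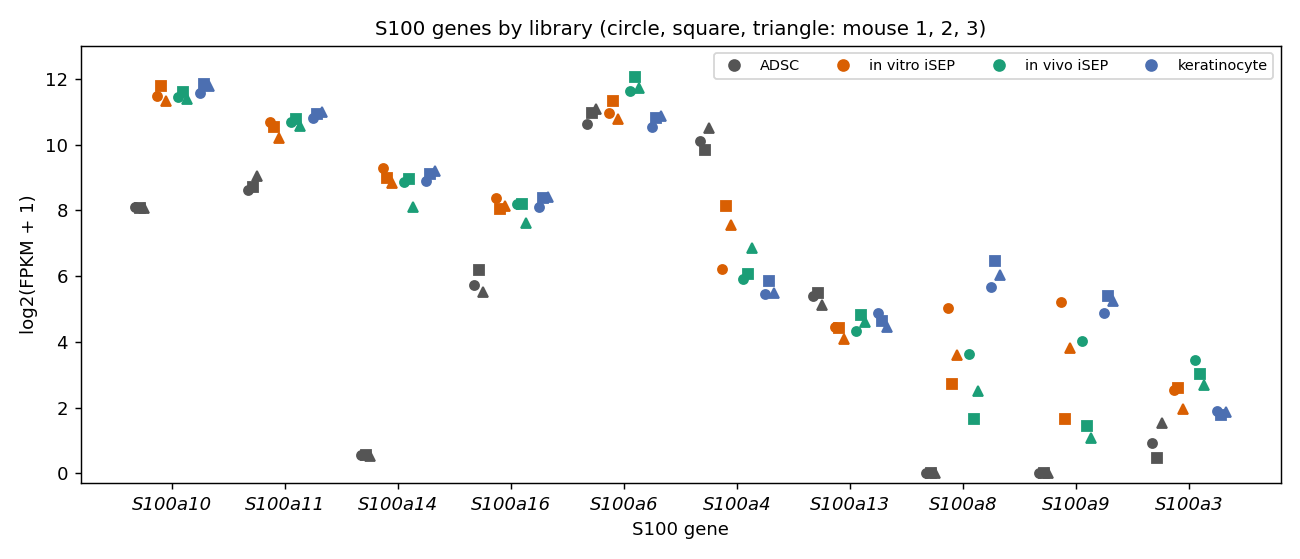
Level of 10 S100 genes as log2(FPKM + 1) in each library, colored by group, with a circle, square and triangle for mouse 1, 2 and 3. S100a10, S100a11, S100a14 and S100a16 are lowest in ADSCs, S100a4 is highest there, and S100a8 is highest in the keratinocyte libraries at 49.7 to 87.2 FPKM.

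S100a8 and S100a9, the pair that forms calprotectin and that keratinocytes and granulocytes both make, were listed at 0 in all 3 ADSC libraries. S100a8 stood at 49.7, 87.2 and 64.6 FPKM in keratinocytes, 31.4, 5.61 and 11.04 FPKM in in vitro iSEPs and 11.3, 2.13 and 4.62 FPKM in in vivo iSEPs. Every keratinocyte value lay above every iSEP value. S100a9 stood at 28.2, 40.8 and 36.5 FPKM in keratinocytes, 35.8, 2.14 and 13.2 FPKM in in vitro iSEPs and 15.3, 1.73 and 1.09 FPKM in in vivo iSEPs, with in vitro iSEP mouse 1 inside the keratinocyte range. S100a8 was 4.19-fold lower in in vitro iSEPs than in keratinocytes (adjusted p = 0.0254) and 11.1-fold lower in in vivo iSEPs (adjusted p = 0.00462). Both S100a8 calls were lost without all libraries of mouse 2 (adjusted p = 0.2203 and 0.1152) and without all libraries of mouse 3. The first was also lost without any 1 keratinocyte library and without in vitro iSEP mouse 2 or 3. For S100a9 the same differences had adjusted p = 0.248 and 0.0599, and its call above ADSCs in in vitro iSEPs (adjusted p = 0.004501) was lost without all libraries of mouse 3 (adjusted p = 0.05451). Of 12 granulocyte and monocyte genes, Ly6g, Csf3r, Mpo, Elane, Adgre1 and Tyrobp were at 0 in all 9 epithelial libraries. The list summed to 3.17 to 4.6 FPKM in keratinocytes, 9.13 to 14.3 FPKM in in vitro iSEPs and 10.2 to 22.6 FPKM in in vivo iSEPs, most of it Cd68. It summed to 68.4 FPKM in ADSC mouse 2, where S100a8 and S100a9 were at 0.

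The small proline-rich genes went from near absence in ADSCs to high levels in all 3 epithelial groups. Their summed level was 1.98, 1.38 and 1.89 FPKM in ADSCs. It was 1452, 411 and 875 FPKM in in vitro iSEPs, 692, 328 and 1001 FPKM in in vivo iSEPs and 1028, 579 and 710 FPKM in keratinocytes. Sprr1a, Sprr1b and Sprr2a3 made up 80.9% to 95.3% of that sum in the epithelial libraries. Of the 16 rows, 9 were higher than in ADSCs in keratinocytes, 9 in in vitro iSEPs and 8 in in vivo iSEPs, and none was lower. Of these rows 11 were tested, and 32.8%, 32.1% and 27.6% of all genes tested were higher in these groups. Sprr1a, Sprr1b, Sprr2a3, Sprr2g, Sprr2h, Sprr2j-ps and Sprr2k were higher in all 3.

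Sprr1a (chr3:92483954-92485881), an envelope precursor also induced by stress and injury, stood at 1.52, 0.52 and 1.05 FPKM in ADSCs. It reached 646, 113 and 365 FPKM in in vitro iSEPs, 157, 55.8 and 587 FPKM in in vivo iSEPs and 548, 300 and 263 FPKM in keratinocytes. The spread within an epithelial group was as wide as the differences between them, and no pair of epithelial groups separated. The log2 difference from ADSCs was 7.47 in keratinocytes, 7.24 in in vitro iSEPs and 6.46 in in vivo iSEPs (SE 0.78 each), with adjusted p = 1.24e-05, 1.629e-05 and 4.302e-05. Sprr1b (chr3:92436809-92438779) stood at 0.077, 0.125 and 0.044 FPKM in ADSCs and at 307, 112 and 290 FPKM in in vitro iSEPs, 86.2, 43.9 and 158 FPKM in in vivo iSEPs and 139, 71 and 70.8 FPKM in keratinocytes. Its mean was 2.53-fold higher in in vitro iSEPs than in keratinocytes, with overlapping libraries and adjusted p = 0.109. Sprr2a3 (chr3:92285304-92289264) was lowest in ADSCs at 0.084 to 0.201 FPKM and reached 107 to 416 FPKM in the epithelial libraries, with log2 differences of 7.45, 7.31 and 7.69 in keratinocytes, in vitro and in vivo iSEPs (adjusted p = 1.742e-07, 2.242e-07 and 1.529e-07).

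The other Sprr2 genes, tandem copies of each other, spanned a wide range of levels. Sprr2h averaged 31.6 ± 15 FPKM in keratinocytes (SD, n = 3), 20.7 ± 19.7 FPKM in in vitro iSEPs and 21.3 ± 24.7 FPKM in in vivo iSEPs, against 0.016 FPKM in ADSCs. Sprr2d averaged 12.5 ± 11.5 FPKM in keratinocytes, 1.99 ± 1.67 FPKM in in vitro iSEPs and 3.06 ± 3.23 FPKM in in vivo iSEPs. Only keratinocytes were called above ADSCs for Sprr2d (adjusted p = 0.001099, against 0.08805 and 0.05678). With the mouse as a replicate block the in vivo difference of Sprr2d passed (adjusted p = 0.03943), while that of Sprr2i no longer did (adjusted p = 0.05028, against 0.04604). Sprr2a1, Sprr2a2, Sprr2b, Sprr2e and Sprr2f failed the filter and reached at most 2.64 FPKM. Of the 50-base stretches in the transcripts of Sprr2a1, Sprr2a2 and Sprr2a3, 96.3%, 96.5% and 61.1% recur in transcripts of other genes, so their levels depend on how shared reads were assigned and are uncertain. For Sprr2b, Sprr2i and Sprr2e the share was 14.1%, 12.5% and 10.2%, and for Sprr1a and Sprr1b it was 0%.

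Sprr4, a member that lies apart from the Sprr2 block and is known for its response to ultraviolet light, separated keratinocytes from both kinds of iSEP. Its level was 15.6, 23.8 and 25.1 FPKM in keratinocytes, 3.74, 0 and 1.58 FPKM in in vitro iSEPs and 0.467, 0.433 and 0.548 FPKM in in vivo iSEPs, and it was listed at 0 in all ADSC libraries. The keratinocyte values rest on 108 to 173 reads, and the iSEP values on 0 to 22. Only 5 libraries reached 1 FPKM, the keratinocyte ones and in vitro iSEP mouse 1 and 3. Sprr4 thus passed the filter of 3 libraries only with the group where it is high, which its tests do not take into account. Sprr4 was 12.1-fold lower in in vitro iSEPs (log2 difference -3.26, SE 0.43, adjusted p = 0.001349) and 44.6-fold lower in in vivo iSEPs (-3.90, adjusted p = 0.0005929), and both calls held in every alternative run. Sprr2j-ps, listed as a pseudogene, showed the reverse for cells converted in culture. It stood at 30.4, 18.4 and 21.2 FPKM in in vitro iSEPs, 2.87, 3.35 and 6.73 FPKM in in vivo iSEPs and 9.35, 3.81 and 4.36 FPKM in keratinocytes. All in vitro values lay above all others. It was 3.99-fold higher than in keratinocytes (adjusted p = 0.005162) and 5.4-fold higher than in in vivo iSEPs (adjusted p = 0.01112). Both calls were lost without all libraries of mouse 2, the first also without mouse 3 and the second also in a fit of those 2 groups alone (adjusted p up to 0.1018 and 0.1729). Sprr3, a gene of internal stratified epithelia such as the esophagus, averaged 3.0 ± 1.72 FPKM in in vitro iSEPs, 1.58 ± 1.29 FPKM in in vivo iSEPs and 0.502 ± 0.814 FPKM in keratinocytes. It was called above ADSCs in in vitro iSEPs (adjusted p = 0.01855), a call lost without ADSC mouse 1, without in vitro iSEP mouse 1 or 3 and without all libraries of mouse 1 or of mouse 3 (adjusted p = 0.1126 without mouse 3). With the mouse as a replicate block Sprr3 was also higher in in vitro iSEPs than in keratinocytes (adjusted p = 0.04969, against 0.09124 without it).

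**Figure D4:**
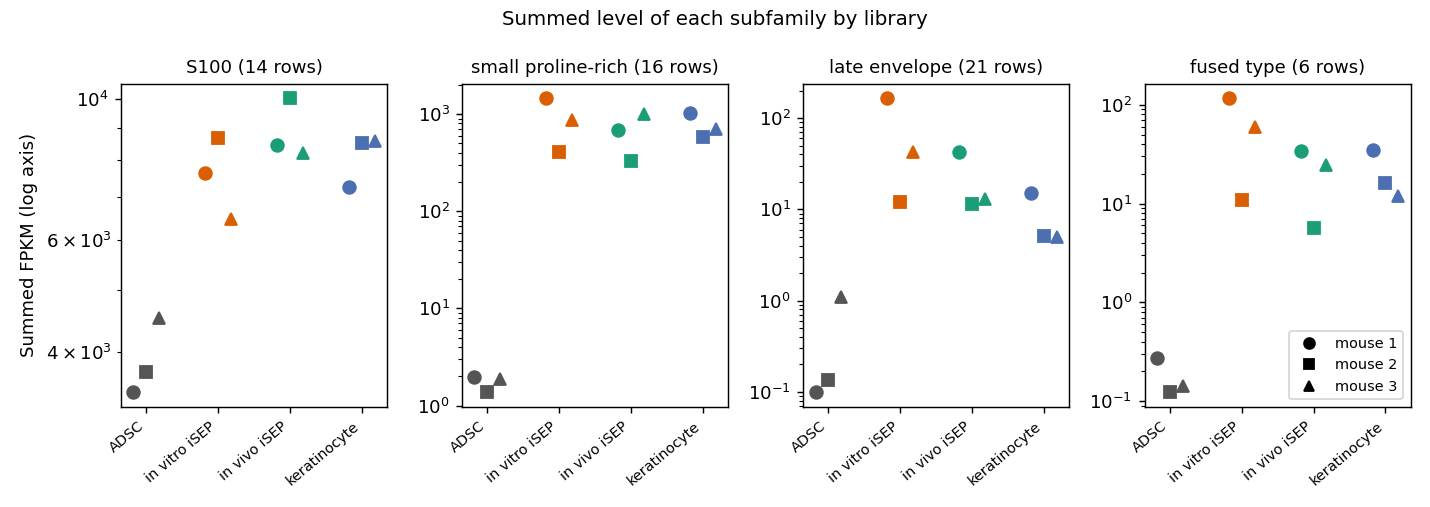
Summed FPKM of each subfamily (log axis) in each library, by group, with a circle, square and triangle for mouse 1, 2 and 3. The late envelope sum runs from 0.1 to 1.09 FPKM in ADSCs and from 5.01 to 164 FPKM in the epithelial libraries, with in vitro iSEP mouse 1 at the top.

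The late envelope genes, whose proteins join the envelope last, were low in all cultures, and their sum varied most among the in vitro iSEP libraries. Their 21 rows summed to 164, 12.1 and 42.5 FPKM in in vitro iSEPs, 42.8, 11.5 and 12.9 FPKM in in vivo iSEPs, 15.1, 5.12 and 5.01 FPKM in keratinocytes and 0.1 to 1.09 FPKM in ADSCs. The 3 epithelial groups did not form an order free of overlap. Over all 21 rows the median log2 difference of in vitro iSEPs from keratinocytes was 1.19. There, 10 of the 12 tested rows had an unadjusted p below 0.05 (limma), a count given without the share of all genes at that threshold. Only Lce3c was called, and 4 rows were with the mouse as a replicate block. In vitro iSEPs were called above ADSCs for 11 of 21 rows, keratinocytes for 1 (Lce1g) and in vivo iSEPs for 1 (Lce3c), with 12 of the 21 tested. Of all genes tested, 32.1%, 32.8% and 27.6% were higher in these groups. The in vitro count was 8 without in vitro iSEP mouse 1, 6 without any 1 of the ADSC libraries, 3 without all libraries of mouse 3 and 3 at a filter of 5 FPKM. With the mouse as a replicate block the in vitro count was 12, the in vivo count 4 and the keratinocyte count 2. The in vivo count rose to 10 with a pseudocount of 0.1, and it was 0 without any 1 ADSC library or without in vivo iSEP mouse 1. A difference between these counts was not tested as such, and 9 of the 21 rows did not reach the filter. The 11 rows were Lce1a1, Lce1d, Lce1e, Lce1f, Lce1g and Lce3a to Lce3f. Over all 21 rows the median log2 difference from ADSCs was 0.16 in keratinocytes, 1.60 in in vitro iSEPs and 0.68 in in vivo iSEPs, while over the 16 small proline-rich rows it was 2.80, 1.63 and 1.76.

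Lce3c (chr3:92944486-92945730) had the highest mean of the subfamily. It stood at 21.9, 2.21 and 9.07 FPKM in in vitro iSEPs, 8.15, 1.65 and 2.07 FPKM in in vivo iSEPs, 1.84, 0.926 and 0.415 FPKM in keratinocytes and at most 0.061 FPKM in ADSCs. The highest of these values rests on 315 reads and the highest ADSC value on 1 read. All in vitro values lay above all keratinocyte values, and the in vivo values overlapped with both groups. It was 10.4-fold higher in in vitro iSEPs than in keratinocytes (log2 difference 2.19, SE 0.64, adjusted p = 0.04943), a call that was lost in 11 of 17 alternatives. These were leaving out any 1 keratinocyte library, in vitro iSEP mouse 1 or 3, or all libraries of any 1 mouse, no filter, no trend and the compared groups alone. The adjusted p of Lce3c was highest, 0.2986, without all libraries of mouse 3. The Lce1 and Lce3 genes moved alike across libraries: in vitro iSEP mouse 1 held the highest value of 20 of the 21 rows, Lce6a being the exception, and in vivo iSEP mouse 1 held the highest value within its group for 15. In keratinocytes Lce1g stood at 1.27, 2.22 and 2.06 FPKM while the other Lce1 rows were at most 0.538 FPKM. The call of Lce1g above ADSCs (adjusted p = 0.01873) was lost without ADSC mouse 1 or 2, without keratinocyte mouse 2 or 3 and without all libraries of mouse 2 or of mouse 3 (adjusted p = 0.09422 without mouse 2). Lce rows share sequence: 15% to 49.3% of the 50-base stretches of Lce1a2, Lce1a1, Lce3c, Lce3d, Lce3e and Lce3f recur in other transcripts, which makes the level of a single Lce row less certain than their sum.

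Within in vitro iSEPs, keratins of the layer above the basal layer followed the order of the late envelope sums. Krt1 and Krt10, the keratin pair of that layer, stood at 167 and 92.3 FPKM in in vitro iSEP mouse 1, 1.17 and 2.95 FPKM in mouse 2 and 21.7 and 34.9 FPKM in mouse 3. In the in vivo iSEP libraries they stood at 7.37 and 5.0 FPKM in mouse 1, 37.4 and 21.9 FPKM in mouse 2 and 0.979 and 3.09 FPKM in mouse 3, which is not the order of the late envelope sums. In keratinocytes both were at or below 1.25 FPKM. Whether the share of suprabasal cells differed between these cultures was not tested.

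Of the fused type genes, Rptn, Tchh and Crnn held 86.5% to 98.3% of the summed level in the epithelial libraries. Above ADSCs were 2 of the 6 rows in keratinocytes and in in vivo iSEPs (Rptn and Tchh) and 3 in in vitro iSEPs (also Crnn). Only 3 of the 6 rows were tested. Of all genes tested, 32.8% were higher in keratinocytes, 27.6% in in vivo iSEPs and 32.1% in in vitro iSEPs. Rptn (repetin, chr3:93393699-93399442) stood at 102, 5.66 and 47.9 FPKM in in vitro iSEPs, 27.4, 2.94 and 13.8 FPKM in in vivo iSEPs and 28.4, 10.7 and 6.24 FPKM in keratinocytes, against 0.009 to 0.025 FPKM in ADSCs. It was called above ADSCs in all 3 groups (adjusted p = 0.001077, 0.00994 and 0.006624), and the in vivo call was lost without all libraries of mouse 1 or of mouse 3 (adjusted p up to 0.08764). Mouse 2 gave the lowest value in both iSEP groups. Tchh (trichohyalin, a protein of the hair follicle's inner root sheath) was even across the epithelial libraries at 2.53 to 6.97 FPKM and was 28.8-fold above ADSCs in keratinocytes and 30.2-fold in in vivo iSEPs (adjusted p = 1.831e-05 and 2.199e-05). Crnn (cornulin, chr3:93144787-93149471), best known from esophageal epithelium, was listed at 0 in all ADSC libraries. It stood at 3.89, 1.44 and 6.7 FPKM in in vitro iSEPs, 0.329, 0.081 and 0.676 FPKM in in vivo iSEPs and 0.776, 0.255 and 0.614 FPKM in keratinocytes, with all in vitro values above all others. Only the 3 in vitro libraries reached 1 FPKM, so Crnn passed the filter through the group where it is high. The tests of Crnn do not take that into account. Crnn was 7.31-fold higher in in vitro iSEPs than in keratinocytes (adjusted p = 0.01601) and 11.1-fold lower in in vivo than in in vitro iSEPs (adjusted p = 0.03238). The first call was lost without keratinocyte mouse 2 or 3 and without all libraries of mouse 1 or of mouse 3 (adjusted p up to 0.1068). The second was lost in 8 of 16 alternatives: without in vitro iSEP mouse 1 or 3, in vivo iSEP mouse 2 or all libraries of any 1 mouse, with no filter, and in a fit of the compared groups alone (adjusted p = 0.3369 in the last). Flg2, Hrnr and Tchhl1 failed the filter, and Flg2 never passed 0.127 FPKM.

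Involucrin and loricrin, early and late envelope proteins, were both low in ADSCs, and neither was called between any pair of epithelial groups. Ivl (chr3:92570900-92573735) stood at 9.54, 18.97 and 18.2 FPKM in keratinocytes, 16.3, 10.4 and 3.65 FPKM in in vitro iSEPs, 3.06, 6.35 and 6.06 FPKM in in vivo iSEPs and 0.053 to 0.168 FPKM in ADSCs. It was above ADSCs in all 3 groups (adjusted p = 2.037e-05, 9.875e-05 and 0.0007143), and the in vivo values lay below all keratinocyte values without passing the test (3.02-fold lower, adjusted p = 0.07282). Lor (chr3:92080271-92083142) stood at 46.6, 0.922 and 9.06 FPKM in in vitro iSEPs, 6.55, 1.01 and 6.57 FPKM in in vivo iSEPs, 2.9, 0.234 and 0.637 FPKM in keratinocytes and at most 0.04 FPKM in ADSCs. The epithelial groups overlapped for Lor, with mouse 2 lowest in each. It was called above ADSCs in in vitro iSEPs (adjusted p = 0.01363), not without all libraries of mouse 1 or of mouse 3 (adjusted p up to 0.1072). With the mouse as a replicate block the in vivo difference for Lor also passed (adjusted p = 0.02469, against 0.07288), as did that for S100a9 (adjusted p = 0.04107, against 0.05513). Kprp, a keratinocyte proline-rich protein, was called in no comparison with ADSCs, and Smcp, a protein of the sperm mitochondrial capsule, stayed at or below 0.075 FPKM.

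**Figure D5:**
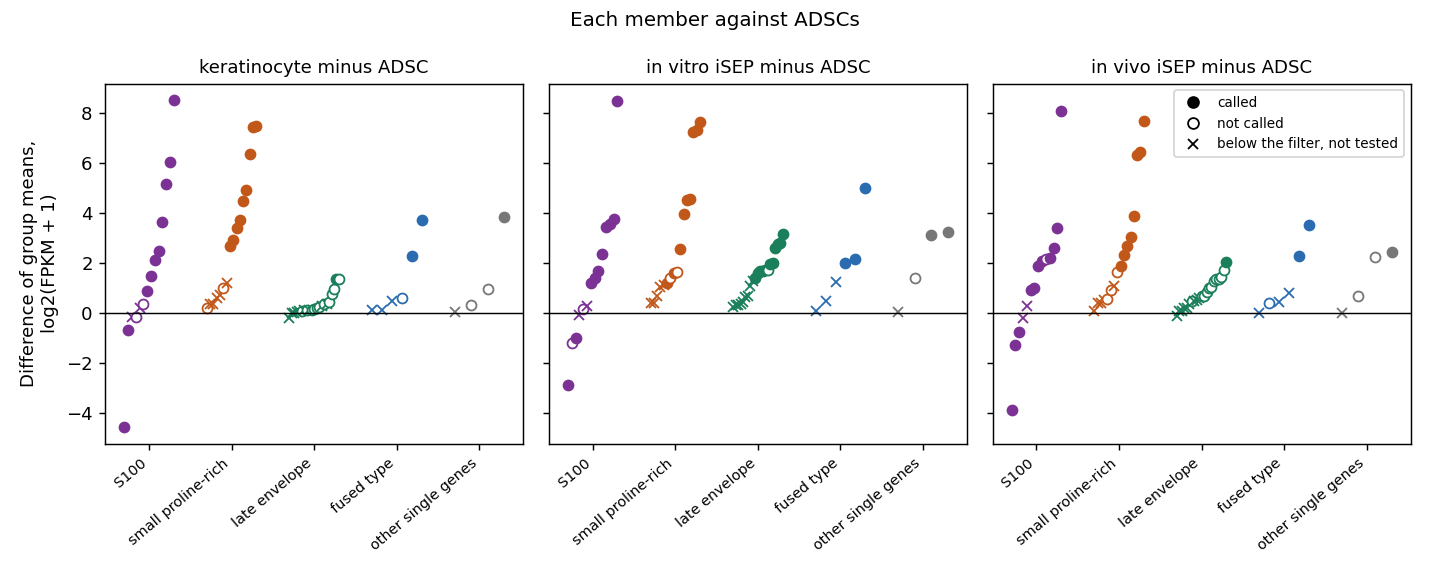
Difference of group means from ADSCs on the log2(FPKM + 1) scale for each member, by subfamily, in 3 panels for keratinocytes, in vitro iSEPs and in vivo iSEPs (filled: called, open: tested and not called, cross: below the filter). The late envelope genes are filled mostly in the in vitro panel, 11 of 21 rows against 1 in each of the others.

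Between the epithelial groups few members were called at the adjusted threshold. In in vitro iSEPs against keratinocytes, 4 members were higher (S100a4, Sprr2j-ps, Lce3c and Crnn) and 2 lower (S100a8 and Sprr4), beside 5.22% of all genes tested higher and 6.12% lower. In in vivo iSEPs against keratinocytes, 2 were higher (S100a3 and S100a6) and 2 lower (S100a8 and Sprr4), beside 3.41% and 4.08%. In in vivo against in vitro iSEPs, none was higher and 2 were lower (Sprr2j-ps and Crnn), beside 0.679% and 0.946%. At an unadjusted p below 0.05 (limma) there were 21 members for in vitro iSEPs against keratinocytes. There were 8 for in vivo iSEPs against keratinocytes and 8 for in vivo against in vitro iSEPs. The share of all genes at this unadjusted threshold is not given, so whether these counts exceed it is not shown. As above, the members called are out of 41 tested. Crnn was tested only because of its in vitro iSEP levels, and Sprr4 passed the filter only with its keratinocyte levels. These comparisons share libraries in pairs. S100a3, an S100 gene known from the hair cuticle, stood at 9.98, 7.06 and 5.41 FPKM in in vivo iSEPs and 2.72, 2.44 and 2.63 FPKM in keratinocytes, a 2.88-fold difference (adjusted p = 0.02661) that was lost without any 1 keratinocyte library, without in vivo iSEP mouse 2, without all libraries of mouse 1 or of mouse 2, with a pseudocount of 0.1 and with no filter. The adjusted p of S100a3 was highest, 0.3347, without all libraries of mouse 2.

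The count for in vitro iSEPs against keratinocytes moved with single libraries. It was 16 without in vitro iSEP mouse 2, the lowest library of its group for most envelope genes, and 3 without in vitro iSEP mouse 3 or keratinocyte mouse 1. It was 2 without keratinocyte mouse 2 or 3 and 5 without in vitro iSEP mouse 1. With the mouse as a replicate block it was 10, 8 higher and 2 lower, the added members being Sprr3, Lce3b, Lce3d and Lce3e (adjusted p = 0.04969, 0.03102, 0.02979 and 0.01884). For in vivo iSEPs against keratinocytes the count was 2 without any 1 keratinocyte library or without in vivo iSEP mouse 2. For in vivo against in vitro iSEPs it was 4 without in vitro iSEP mouse 2 and 1 without in vitro iSEP mouse 3 or in vivo iSEP mouse 2. The numbers of all genes called in these runs are not given, so whether they moved alike is not shown.

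Genes that work with the cluster were followed in lists of their own. Beside their counts against ADSCs stand the shares of all genes tested. These were 32.8% higher and 20.7% lower in keratinocytes, 32.1% and 21.7% in in vitro iSEPs, and 27.6% and 20% in in vivo iSEPs. Of 6 matched neighbours of the cluster outside the naming rule, 4 were higher than in ADSCs in keratinocytes, 2 in in vitro iSEPs and 3 in in vivo iSEPs, among them Crct1, a cysteine-rich protein gene (log2 difference 3.97, 4.86 and 4.48), and Pglyrp3, a peptidoglycan recognition protein (3.89, 3.04 and 2.74). Pglyrp4 was lower than in keratinocytes in both in vitro iSEPs (adjusted p = 0.03619) and in vivo iSEPs (adjusted p = 0.02338). Of 3 S100 genes on other chromosomes (S100b, S100g and S100z), none reached the filter. Of 19 cross-linking enzymes and cargo proteins of the envelope, 18 were higher than in ADSCs in keratinocytes, 19 in in vitro iSEPs and 18 in in vivo iSEPs, among them Lgals7, Dmkn and Serpinb5. Tgm1, the main transglutaminase of the envelope, stood at 25.3, 5.95 and 18.2 FPKM in in vitro iSEPs, 1.55, 0.954 and 4.77 FPKM in in vivo iSEPs and 4.09, 2.82 and 2.83 FPKM in keratinocytes. Every in vitro value of Tgm1 lay above every other library, and it was called higher in in vitro iSEPs than in keratinocytes (adjusted p = 0.02991) and lower in in vivo than in in vitro iSEPs (adjusted p = 0.0397). Within this list 3 genes were higher and 1 lower in in vitro iSEPs than in keratinocytes, and 4 were lower in in vivo than in in vitro iSEPs (2 with the mouse as a replicate block).

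Of 11 suprabasal keratins and desmosome genes, 4 were higher than in ADSCs in keratinocytes, 8 in in vitro iSEPs and 4 in in vivo iSEPs, with Dsg1b called in all 3 (log2 difference 2.90, 4.34 and 3.30). Krt10 was higher in in vitro iSEPs than in keratinocytes (log2 difference 3.71, SE 0.94, adjusted p = 0.03021). Of 12 barrier lipid genes, 5 were higher and 3 lower in keratinocytes, 9 and 2 in in vitro iSEPs and 7 and 3 in in vivo iSEPs. The keratinocyte counts of this list were near the shares of all genes tested, 32.8% higher and 20.7% lower. Cers3, a ceramide synthase, led them (4.39, 5.14 and 4.47), and Ugcg, a glucosylceramide synthase, was lower in all 3. The lipoxygenase gene Alox12b was higher in in vitro iSEPs than in keratinocytes (log2 difference 2.59, adjusted p = 0.00666). Of 20 transcription factors linked to epidermal differentiation, 11 were higher and 2 lower in keratinocytes, 14 and 1 in in vitro iSEPs and 11 and 3 in in vivo iSEPs, with Hopx and Grhl1 higher in all 3. Between the epithelial groups, Klf4, Ovol1 and Fosl1 were higher in in vitro iSEPs than in keratinocytes (log2 difference 0.91, 1.32 and 1.22, adjusted p = 0.04722, 0.01708 and 0.04312). In the fit with the mouse as a replicate block, 2 of the factors were higher there. Ovol1 was lower in in vivo than in in vitro iSEPs (log2 difference -1.36, adjusted p = 0.04714).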

How the data were processed

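RNA from 12 cultures was sequenced with a TruSeq kit, whose strandedness no source used here gives, so reads of overlapping antisense genes may be mixed. The submitters' processing notes name the build mm10, the aligner STAR 2.5.1b, HOMER and FastQC 0.11.5. The deposited values are FPKM over RefSeq exons, 1 entry per gene, made by the authors with HOMER per the file headers. Of its columns of per-sample values, 3 matched no sample and were not used.

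Values were tested as log2(FPKM + 1) with limma 3.58.1 (R 4.3.3, empirical Bayes with trend, 4 group means, all 12 libraries) on the 12364 genes that reached 1 FPKM in 3 or more libraries. P-values were two-sided and adjusted over these genes by the Benjamini-Hochberg method, with calls below 0.05 in 6 comparisons. Fold changes on that scale understate changes of low genes; folds in the text are ratios of mean FPKM. Read numbers were recovered from the steps of the lowest values, and 100% came out whole within 0.15 of a read. Text, tables and motif counts were made with Python 3.11.15. Stretches of 50 bases were compared among GENCODE M21 transcripts.

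Any member could be named with its levels; statistics were given for the most changed called members, up to 4 per subfamily and comparison and for a preset group of genes. The members, the pathway lists and the marker lists were chosen with earlier results of these data known. One listed neighbour gene, 2310046K23Rik, was not matched, and the values of 1 listed gene are not reported here. Titles give each group's libraries a mouse number, and libraries of the same number were taken to come from the same animal, which the titles do not spell out. The reported fit does not use this pairing. Deviations from group means correlated at -0.178 to 0.21 (median 0.045) over the 18 pairs from the same mouse and at -0.294 to 0.312 (median -0.014) over the 36 pairs from different mice. Nothing in the labels tells whether the 3 cultures of a group differ beyond the animal. Alternatives were another pseudocount (0.1), filter (5 FPKM or none), scaling (median or quantile), a mouse block, no trend, the compared groups alone, and leaving out libraries.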

Additional observations from a re-analysis of the deposited data

How the results depend on the processing

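The number of members called in each comparison was recomputed under each alternative. With a pseudocount of 0.1 it was 36 for in vivo iSEPs against ADSCs (23 in the reported fit) and 10 for in vitro iSEPs against keratinocytes (6). With no filter on low values it was 2 for in vivo iSEPs against keratinocytes (4) and 1 for in vivo against in vitro iSEPs (2). At 5 FPKM it was 23 for in vitro iSEPs against ADSCs (35) and 1 for in vivo against in vitro iSEPs. In a fit of the compared groups alone it was 0 for in vivo against in vitro iSEPs. With the mouse as a replicate block, the paired fit, it was 10 for in vitro iSEPs against keratinocytes. Among member calls the block also added Lce3f (adjusted p = 0.02188) in keratinocytes, Lce1a2 (0.03095) in in vitro iSEPs and Lce3f (0.008454), Lce3d (0.03906) and Lce3e (0.02173) in in vivo iSEPs, each against ADSCs. Beside these and the changes given with the results above, it changed no other member call. Leaving out libraries gave 20 to 23 calls for keratinocytes, 21 to 39 for in vitro iSEPs and 18 to 26 for in vivo iSEPs against ADSCs. It gave 1 to 16 for in vitro iSEPs against keratinocytes, 1 to 6 for in vivo iSEPs against keratinocytes and 0 to 4 for in vivo against in vitro iSEPs. The numbers of all genes called in the same runs are not given here, so the member counts cannot be set against them. The cause was not tested. Of 60 calls of single members followed through the alternatives, 41 held in all of them, 39 of these against ADSCs. No result reversed. Low members rest on few reads, and 20 rows fell below the filter of the reported fit.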
